A study of Mus musculus with 2 samples.

Results

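The extracellular matrix is the protein meshwork that cells secrete around themselves. Its genes were followed here in 2 mouse melanoma cultures: 72 genes of the 23284 listed per library, of which 43 encode collagen chains, 11 laminin chains and 18 were taken by name (nidogens, perlecan, agrin, matrix glycoproteins, small leucine-rich proteoglycans and lysyl oxidases). The rule takes members by gene symbol and uses no measured value, but the members were chosen with earlier results of these data known. Collagen chains wind into trimers that form fibrils or, for collagen IV, the sheet of the basement membrane. Laminins are trimers of an alpha, a beta and a gamma chain that form the other basement membrane network, and nidogens, perlecan and agrin link both to each other and to cells. Matricellular proteins such as osteonectin, thrombospondins and osteopontin sit in the matrix and mainly regulate cells. In melanoma, both networks lie at the border that invading cells cross.

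B16 is a melanoma line from the C57BL/6 mouse strain, and B16/BL6 is known as an invasive subline of it. RNA sequencing of both was done to look for genes related to metastasis. B16 was grown in DMEM and B16/BL6 in RPMI, both with 10% FBS and 1% penicillin/streptomycin, so line and medium cannot be told apart. There was 1 library of each line: no value has a replicate error, no difference was tested, and the 2 libraries are compared as libraries.

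Expression is in FPKM, fragments scaled to transcript length and to the mapped total, which can be compared between genes. Paired values give B16 first and B16/BL6 second. Differences are log2(FPKM + 1) in B16/BL6 minus the same in B16, a scale that understates the change of low genes. Genes that reached 1 FPKM in either library were compared, and "higher" or "lower" means at least 2-fold on that scale. Read depth was not recorded. By the step size of the lowest values B16/BL6 was 1.10 times as deep as B16, and 1 FPKM on a transcript of 2 kb corresponded to roughly 20.1 fragments in B16 and 22.2 in B16/BL6. Melanocyte markers were abundant in both libraries (6 of 6, 97.1 to 3789 FPKM in B16 and 90.7 to 6160 FPKM in B16/BL6).

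The promoter stretches of the members at 5 FPKM or more that differed at least 2-fold are shown, because these genes carry most of the differences below. They come from RefSeq windows of 250 bases before to 50 bases after the start (GRCm38.p6, the assembly that mm10 names). Each is the longest run outside annotated UTR and coding bases and outside the RefSeq gene range. For the collagen IV pair Col4a1 and Col4a2, the 30 bases that span both starts are shown instead. Capitals mark GC boxes (GGGCGG) and CCAAT boxes (CCAAT) on either strand.
Col4a1 and Col4a2, chr8:11312801-11312830, plus strand: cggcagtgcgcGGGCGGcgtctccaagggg
Lamb1, chr12:31265043-31265145, plus strand: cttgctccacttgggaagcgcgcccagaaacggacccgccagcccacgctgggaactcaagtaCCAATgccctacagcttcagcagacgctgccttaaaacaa
Col16a1, chr4:130047590-130047816, plus strand: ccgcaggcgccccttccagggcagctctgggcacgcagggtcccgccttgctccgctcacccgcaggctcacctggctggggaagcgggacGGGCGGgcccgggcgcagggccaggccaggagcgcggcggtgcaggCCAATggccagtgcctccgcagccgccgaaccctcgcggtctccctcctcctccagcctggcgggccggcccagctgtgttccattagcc
Col1a2, chr6:4505370-4505492, plus strand: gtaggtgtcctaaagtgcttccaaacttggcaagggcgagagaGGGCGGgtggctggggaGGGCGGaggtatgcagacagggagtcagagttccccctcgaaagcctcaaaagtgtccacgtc

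Most matrix genes were silent or nearly so, as were most genes listed, and a small set made up the matrix transcripts of these cells. Of all 23284 genes, 9351 were at 0 in both libraries and 3224 above 0 but under 1 FPKM in both. Of the 72 genes, 20 were listed at 0 in both libraries and 28 lay above 0 but under 1 FPKM in both, which left 24 genes at 1 FPKM or more. Of these 24, 6 were higher in B16/BL6 (Col4a1, Col4a2, Col1a2, Col16a1, Col9a1 and Spp1), where 3.31% of all 10709 genes compared were higher. Another 3 were lower (Lamb1, Col5a3 and Col10a1), against 3.16% of all genes. The median difference of the 24 genes was 0.12, beside 0.01 for all genes compared. Col4a2, Col1a2, Spp1, Lamb1, Col10a1 and Col15a1 reached 1 FPKM in a single library, a route that favours genes that differ, and all of these but Col15a1 differed at least 2-fold. Among the 18 members at 1 FPKM or more in both libraries, 4 differed at least 2-fold, against 3.99% of 10071 such genes.

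The members were also compared by level. All 9 genes that differed averaged under 20 FPKM, a range that held 17 of the 24 members, and 8.59% of all genes averaging under 20 FPKM differed at least 2-fold. The 7 members averaging 20 FPKM or more (Sparc, Fbln1, Lamc1, Hspg2, Fn1, Lamb2 and Agrn) were all within 2-fold. Of all such genes 3.44% were not, so 7 genes are too few to be set apart from that share. Rescaling both libraries to equal sums (the TPM scale) moved the median of all genes by -0.16 and their split from 354 higher and 338 lower to 369 and 583. On that scale 6 members were higher and 4 lower, the fourth being Col15a1, and the members' median was -0.01.

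**Figure D1:**
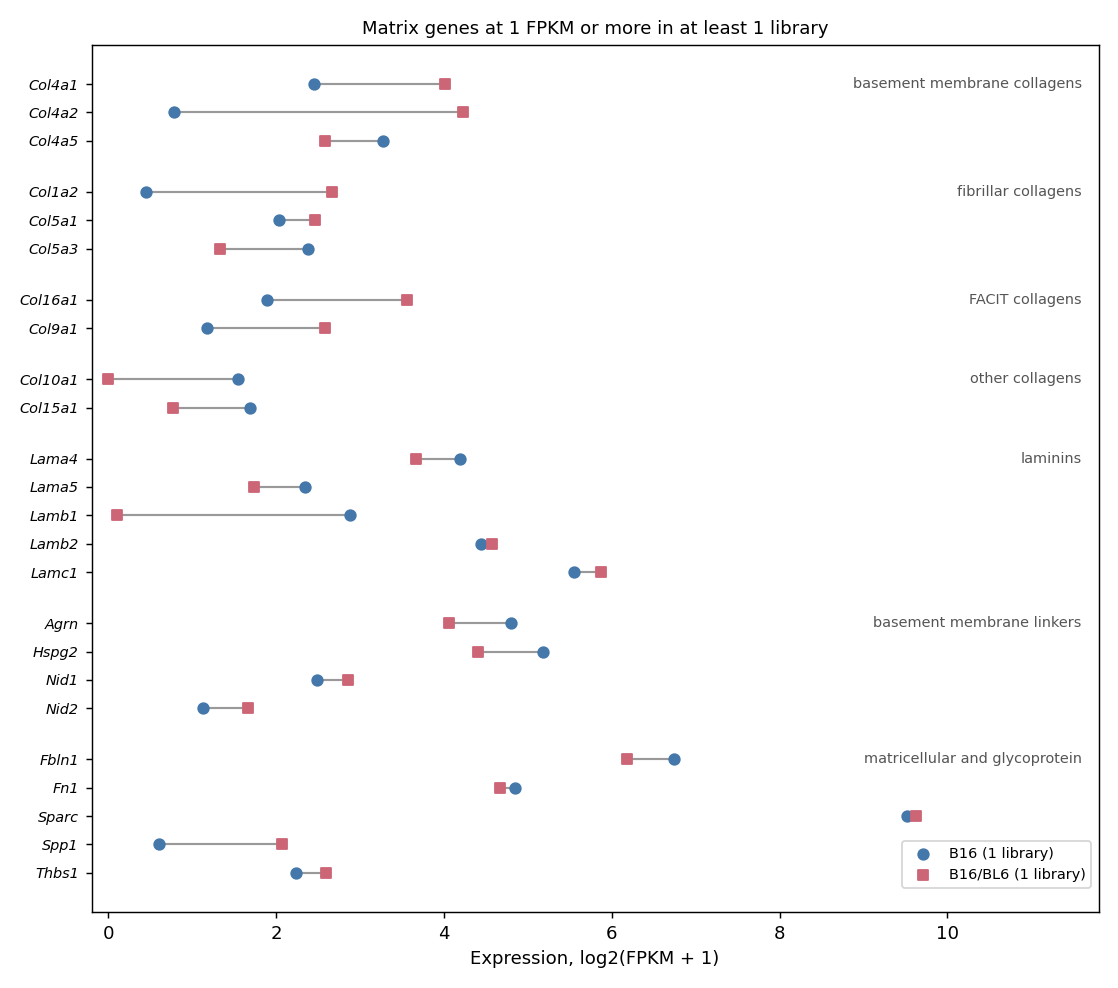
Expression of the 24 matrix genes at 1 FPKM or more, as log2(FPKM + 1) on the horizontal axis, grouped by role. Circles are the B16 library and squares the B16/BL6 library. The longest lines are those of Col4a2 (0.714 and 17.7 FPKM) and Lamb1 (6.34 and 0.0737 FPKM), while Sparc, at the far right, hardly moves.

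**Figure D2:**
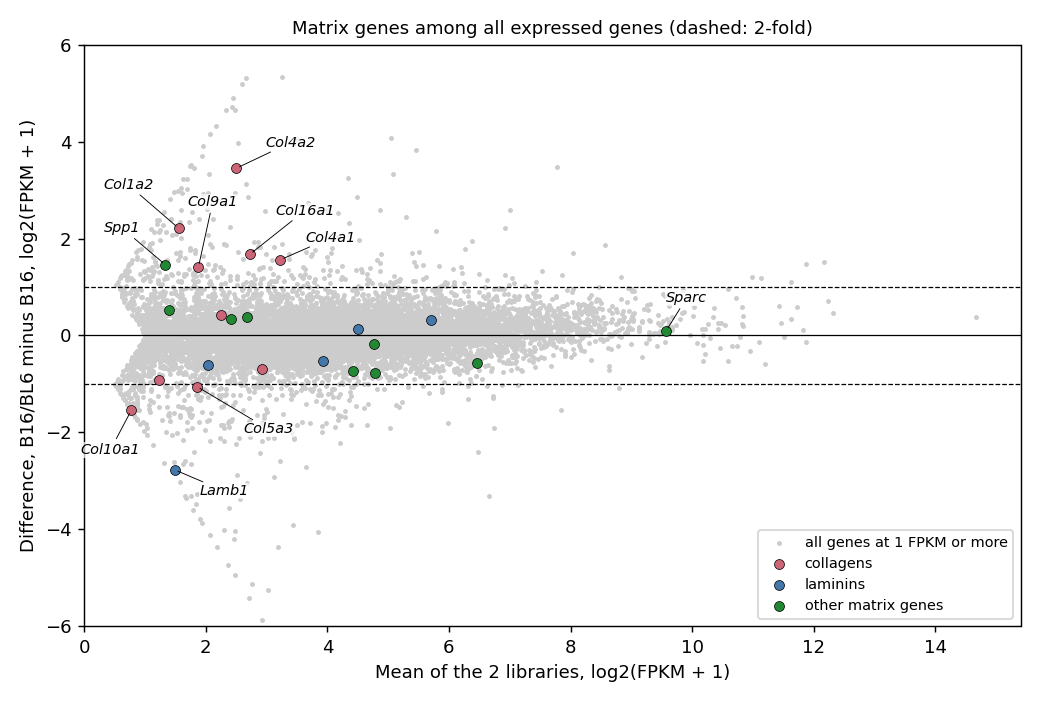
Difference between the libraries (vertical axis, log2 scale) against the mean level of the 2 libraries (horizontal axis) for all genes at 1 FPKM or more (grey) and the matrix genes (coloured). Dashed lines mark 2-fold, and 14 grey genes lie beyond the vertical axis limit of 6. The 9 labelled matrix genes past the dashed lines sit at the left, among low genes, and Sparc at the right lies near 0.

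Collagen IV, the network-forming collagen of basement membranes, stood higher in B16/BL6 through its most common chains. Col4a1 (chromosome 8, 11198423 to 11312889) was at 4.45 and 15.1 FPKM, a difference of 1.56. Col4a2 (chromosome 8, 11312805 to 11449287) was at 0.714 and 17.7 FPKM, a difference of 3.45. These chains assemble together, with more of the Col4a1 product than of the Col4a2 product in each trimer. In B16 the Col4a1 level was 6.24 times the Col4a2 level, and in B16/BL6 it was 0.853 times, so the pair did not change in step. By approximate fragment numbers, the Col4a2 value of B16 rested on about 46.2 fragments and that of B16/BL6 on about 1269.7.

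These genes are transcribed in opposite directions from starts that overlap. In the promoter table the first base of Col4a2 lies at 11312805 and that of Col4a1 at 11312826, and the 30-base stretch shown above holds both, with a GC box between them. The RefSeq gene range of Col4a1 given above reaches further, to 11312889, which lies outside the stretch. In GENCODE their exons share 22 bases on opposite strands. The library kit was stranded, but no source used here says whether the authors' counting used strand.

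The other collagen IV chains behaved differently. Col4a5, an X-linked chain, was at 8.69 and 4.99 FPKM, within 2-fold. Its known assembly partners were near or at 0: Col4a6 was listed at 0 in both, Col4a3 was at 0.0431 and 0.0488 FPKM, and Col4a4 at 0.143 and 0.605 FPKM. Of the summed collagen IV level, 14 and 38.5 FPKM, Col4a5 made up 61.9% in B16 and 13% in B16/BL6. Col4a2 went from 5.08% to 46.1% of that sum.

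Fibrillar collagens form the cross-striated fibrils of connective tissue, and only 3 of their 11 genes reached 1 FPKM. Col1a2, a chain of collagen I, stood at 0.367 and 5.32 FPKM (chromosome 6, 4505618 to 4541543), a difference of 2.21. Its partner Col1a1, which supplies most of the chains of collagen I, was at 0.161 and 0.110 FPKM. Transcripts of the minor chain thus differed while those of the major chain stayed near 0 in both libraries. Col3a1, the fibril collagen that accompanies collagen I in soft tissue, was listed at 0 in both, as were Col24a1 and Col5a2.

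Collagen V regulates the diameter of collagen I fibrils. Col5a1 was at 3.09 and 4.50 FPKM, within 2-fold, and Col5a3 at 4.21 and 1.51 FPKM, a difference of -1.05. Their order therefore turned: the Col5a1 level was 0.736 times the Col5a3 level in B16 and 2.98 times in B16/BL6. The difference of Col5a3 lay just past 2-fold and was -0.99, under it, with each chromosome centred at the median of its genes. Col11a1, Col11a2, Col27a1 and Col2a1 stayed under 1 FPKM, the last being listed at 0 in B16 and at 0.452 FPKM in B16/BL6.

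FACIT collagens sit on the surface of other fibrils rather than forming their own. Col16a1, a FACIT collagen that binds integrins (chromosome 4, 130047817 to 130099277), was at 2.70 and 10.8 FPKM, a difference of 1.67. Col9a1, a chain of the cartilage collagen IX, was at 1.26 and 4.995 FPKM, a difference of 1.41. The other collagen IX chains did not follow: Col9a2 was at 0.535 and 0.614 FPKM and Col9a3 at 0.309 and 0.311 FPKM. Of the 9 genes of this class these were the only members at 1 FPKM or more. Col12a1 was at 0.150 and 0.0215 FPKM and Col14a1 at 0.116 and 0.0789 FPKM.

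Among the other 17 collagen genes, 2 reached 1 FPKM, both in B16. Col10a1, the network collagen of growth plate cartilage, was at 1.92 FPKM in B16 but listed at 0 for B16/BL6, and no ratio is given against 0. Its B16 value corresponded to roughly 60.3 fragments, and its exons share 18 bases with Nt5dc1 on the opposite strand. Col15a1, a collagen of basement membrane zones, was at 2.21 and 0.706 FPKM. Its difference of -0.91 was under 2-fold with the pseudocount of 1, and was -1.52 with 0.1 and -0.34 with 5. Col18a1, its closest relative and the source of endostatin, was near 0, at 0.0187 and 0.0679 FPKM. All 6 chains of collagen VI, a microfibril collagen, stayed under 1 FPKM, with Col6a1 at 0.361 and 0.0218 FPKM.

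**Figure D3:**
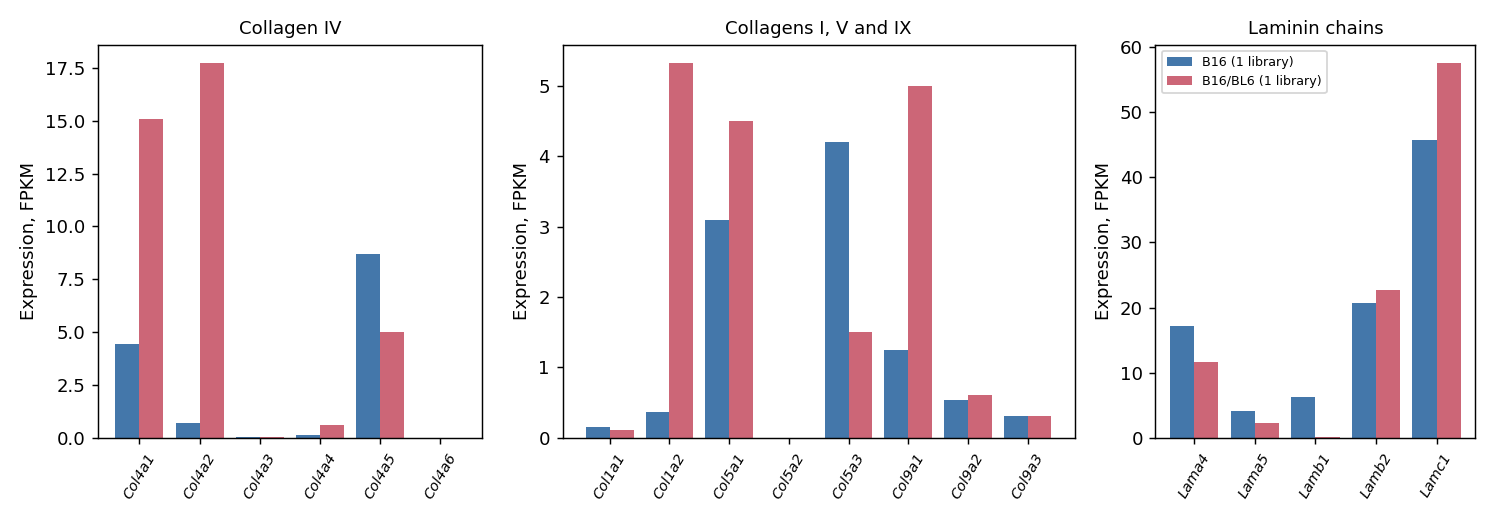
FPKM (bars from 0, one scale per panel) of chains that assemble with each other, B16 in blue and B16/BL6 in red, 1 library each. Col4a1 and Col4a2 are tall in B16/BL6, at 15.1 and 17.7 FPKM. Col1a2 stands without Col1a1, Col9a1 without Col9a2 and Col9a3, and the Lamb1 bar of B16/BL6 is barely visible.

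Laminin transcripts had the same main alpha, beta and gamma chains in both libraries, while the minor beta chain Lamb1 was nearly absent in B16/BL6. Of 11 laminin genes 5 reached 1 FPKM, and of these 1 was lower in B16/BL6 and 0 were higher, where 3.16% and 3.31% of all genes were. Lamb1 (chromosome 12, 31265146 to 31329644), a beta chain made by most cell types, was at 6.34 and 0.0737 FPKM, a difference of -2.77. The values corresponded to roughly 368 and 4.74 fragments. Lamb2, the alternative beta chain, was at 20.7 and 22.8 FPKM. Lamb1 therefore made up 23.5% of the summed beta chain level in B16 and 0.323% in B16/BL6. In B16 the Lamb2 level was already 3.26 times that of Lamb1.

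Lamc1, the gamma chain of most laminins, was the highest laminin gene, at 45.8 and 57.5 FPKM. Lama4, the alpha chain typical of vessels and mesenchymal cells, was at 17.2 and 11.7 FPKM. Lama5, the widespread alpha chain of epithelial and endothelial basement membranes, was at 4.08 and 2.32 FPKM. Both alpha chains stood lower in B16/BL6 by less than 2-fold, and Lama4 made up 80.8% of the alpha chain level in B16 and 83.5% in B16/BL6. Lama1, Lama2 and Lamb3 were listed at 0 in both libraries, and Lama3 and Lamc3 were at 0.0143 FPKM or less. The median difference of the 5 laminins was -0.52, or -0.19 with a minimum of 5 FPKM, which leaves out Lama5. The summed laminin level was 94.1 and 94.3 FPKM, since on this scale the Lamc1 and Lamb2 values offset the others. The sums of all genes were 500485 and 563451 FPKM, so laminins were a smaller share of the total in B16/BL6. On the TPM scale the Lamb2 difference was -0.032.

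The 4 linkers of the basement membrane were all expressed and all within 2-fold, and they fell into 2 pairs. The proteoglycans stood lower in B16/BL6: Hspg2, which encodes perlecan, was at 35.1 and 20.2 FPKM, and Agrn, which encodes agrin, at 26.7 and 15.7 FPKM. Their differences were -0.77 and -0.73. The nidogens, which bridge laminin and collagen IV, stood higher, with Nid1 at 4.61 and 6.26 FPKM and Nid2 at 1.18 and 2.16 FPKM. Nid2 shares 437 exon bases on the opposite strand with a gene at 37.6 and 28.98 FPKM (2700060E02Rik), so its low values are uncertain. Without replicates, whether any linker differed between the lines was not tested.

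Among the matricellular proteins and glycoproteins, Sparc stood far above every other matrix gene. Sparc encodes osteonectin, which binds collagen and modulates cell adhesion, and was at 735 and 787 FPKM. It ranked 62nd and 70th of all genes, and made up 68.8% and 71.6% of the summed level of the 72 matrix genes. Fbln1, which encodes fibulin-1, a binding partner of fibronectin and laminin, came next at 106 and 71.3 FPKM. Fn1, the fibronectin gene, was at 27.7 and 24.5 FPKM. None of these 3 differed by 2-fold.

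Spp1 was the exception in this group. It encodes osteopontin, a secreted ligand of integrins and CD44, and stood at 0.523 and 3.18 FPKM, a difference of 1.46. On a short transcript these values corresponded to roughly 7.90 and 53.3 fragments. Spp1 shares 309 exon bases on the same strand with an annotated gene that has no value here (Gm42793), so its low values are uncertain. Thbs1, the gene of thrombospondin-1, an inhibitor of angiogenesis, was at 3.72 and 5.02 FPKM. Its relative Thbs2 stayed under 1 FPKM, at 0.396 and 0.0431 FPKM, and Postn, the periostin gene, at 0.930 and 0.309 FPKM. Tnc, the tenascin-C gene, and Fbln2 were listed at 0 in both libraries.

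The small leucine-rich proteoglycans and the lysyl oxidases were close to absent from both libraries. Dcn and Lum, the decorin and lumican genes, were listed at 0 in both, and Bgn, the biglycan gene, was at 0 in B16 and 0.0376 FPKM in B16/BL6. Lox, the lysyl oxidase that crosslinks collagen and elastin, was listed at 0 in both, and Loxl2 was at 0.219 and 0 FPKM.

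Fibroblast markers outside the matrix genes were examined beside the collagens that stood higher in B16/BL6. Of 7 markers, 5 were under 1 FPKM in both libraries, and Thy1, Dpt and Mfap5 were listed at 0 in both. Pdgfrb stood at 0.104 and 7.43 FPKM and Pdpn at 2.55 and 12.5 FPKM, so the summed level of the list was 3.03 and 20.6 FPKM. These 2 genes moved in the same direction as Col1a2, Col4a1 and Col4a2, and their part in the result was not tested. The 4 pericyte and smooth muscle markers chosen (Rgs5, Acta2, Myh11 and Cnn1) were listed at 0 in both libraries. Pdgfrb, which pericytes also express, was counted with the fibroblast markers only. The 5 endothelial, 5 leukocyte and 4 epithelial markers were all under 1 FPKM in both, summing to 0.0719, 1.19 and 0.108 FPKM in B16 and to 0.0191, 1.13 and 0.0976 FPKM in B16/BL6.

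Genomic neighbours of the 9 genes that differed were compared as well, a look added after the values were seen. Among all 10709 genes compared, 6.46% differed at least 2-fold. Of the 34 distinct genes that were the 2 nearest expressed ones on each side, all but 3 were within 2-fold. Those 3 were Col4a1 and Col4a2, which neighbour each other, and Tinagl1 beside Col16a1. Tinagl1 encodes a secreted glycoprotein that binds matrix proteins and stood at 6.59 and 42.4 FPKM. The 4 genes around Lamb1 had differences of 0.02 to 0.52, above 0 where Lamb1 was at -2.77. Around Col10a1 on chromosome 10, where the median of all genes was 0.41, the 4 neighbours had differences of 0.39 to 0.64.

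Promoter windows were found in the RefSeq table for 51 of the 72 genes, 60 windows in all. A GC box (GGGCGG), the motif bound by Sp1 family factors, was in 35 of the 60 (58.3%), and in 35.7% of all 32851 windows of the same length. CCAAT, the motif of NF-Y, was in 18 of the 60 (30%) and in 37.4% of all windows. Each window of Col4a1, Col4a2, Lamb1, Col16a1 and Col1a2 held both motifs, and of these genes Lamb1 alone was lower in B16/BL6. The GC box at 11312812 to 11312817 is counted for both Col4a1 and Col4a2. How many of all windows hold both motifs was not counted, so no result is drawn from this. The M-box core CATGTG, a form of E-box that the melanocyte factor MITF can bind, was in 4 of the 60 windows (6.67%) and in 14.2% of all windows. Among these 5 genes it was in the Lamb1 window alone, 61 bases before the transcript start of that window and outside the stretch shown. That match, at 31265232 to 31265237, lies inside the RefSeq gene range of Lamb1 given above, as do the GC boxes of that window. TATAAA was in 10 of the 60 windows (16.7%, against 13.6%). TGANTCA, with N as any base, takes in AP-1 sites but is broader, and was in 1 window (1.67%, against 7.81%). All motifs were searched on both strands, none contains another, and a match is a description of the letters in the window.

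Enzymes and chaperones that fold, cut and crosslink matrix proteins were compared in the same way. Of 32 such genes 20 reached 1 FPKM, of which 1 was higher and 2 were lower (3.31% and 3.16% of all genes), with a median difference of 0.15. Fkbp10, a collagen-folding isomerase of the endoplasmic reticulum, was at 8.32 and 19.8 FPKM. Leprel1, the older symbol of P3h2, a prolyl 3-hydroxylase that acts on collagen IV, went the other way at 20.6 and 4.34 FPKM, a difference of -2.01. Adamts14, a protease that removes the amino-terminal propeptide of fibrillar collagens, was at 3.40 and 0.939 FPKM. Serpinh1, the collagen chaperone HSP47, stood at 565 and 991 FPKM, and Bmp1, the protease that removes the carboxy-terminal propeptide, at 5.82 and 10.4 FPKM, both within 2-fold. Leprel1 was lower where Col4a1 and Col4a2 were higher, and Col4a5, with a difference of -0.70, was on the side of Leprel1 but within 2-fold.

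Receptors for collagen, laminin and fibronectin are the cell surface side of these networks. Of 26 genes 17 reached 1 FPKM, of which 2 were higher and 0 were lower in B16/BL6 (3.31% and 3.16% of all genes), or 1 lower on the TPM scale. The median difference was 0.01. Bcam, a receptor for the laminin chain encoded by Lama5, was at 2.18 and 9.44 FPKM, while Lama5 itself was at 4.08 and 2.32 FPKM. Itga9, an integrin alpha subunit whose ligands include osteopontin and tenascin-C, was at 2.52 and 9.5 FPKM, and its ligand gene Spp1 was higher in the same library. Among laminin and collagen receptors, Itga6 was at 52.0 and 30.7 FPKM, Itga1 at 4.16 and 2.03 FPKM, and the fibronectin receptor gene Itga5 at 12.8 and 8.01 FPKM.

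**Figure D4:**
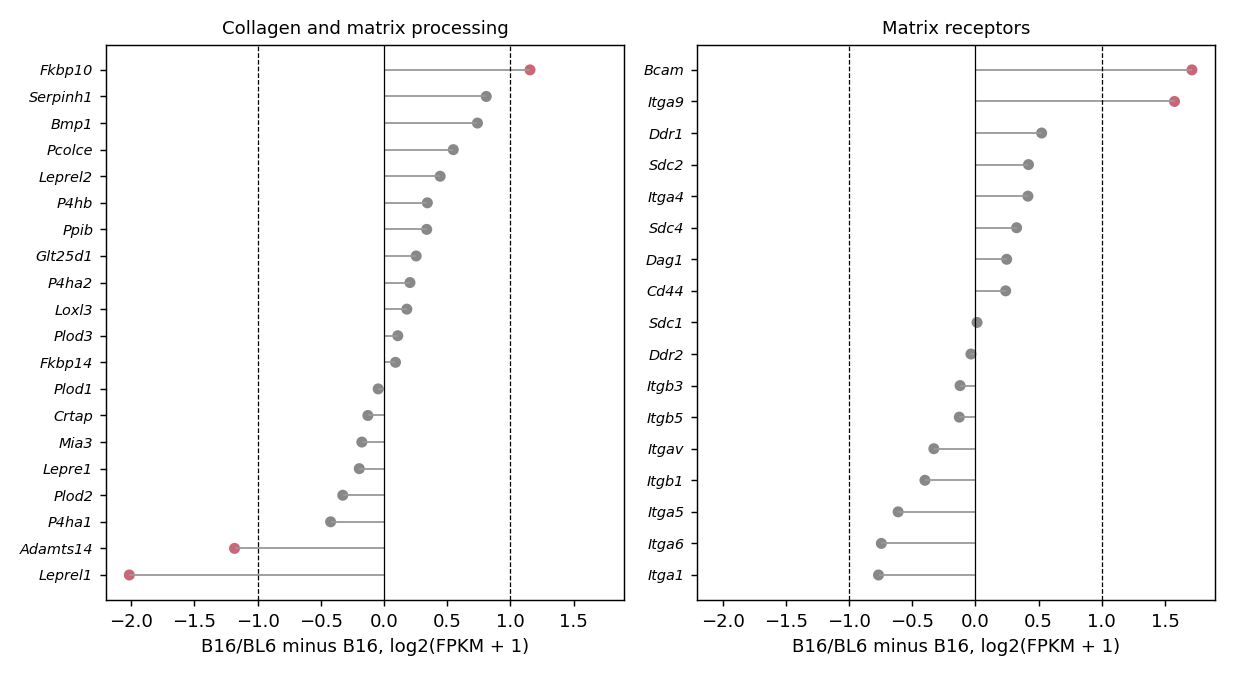
Differences between B16/BL6 and B16 on the log2(FPKM + 1) scale for 20 processing genes (left) and 17 receptor genes (right) at 1 FPKM or more, spelled as in the files. Dashed lines mark 2-fold and red points lie past them, which are Fkbp10, Adamts14 and Leprel1 on the left and Bcam and Itga9 on the right.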

How the data were processed

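RNA of 2 cultures was sequenced after a stranded mRNA preparation, per the labels' protocols. The deposited values are FPKM, 1 per gene symbol, per the file headers. The submitters' processing notes name, with no role or order, Cufflinks 2.2.1, TopHat2 2.0.13, SAMtools 0.1.19, Bowtie2 2.2.3 and the mm10 genome. No source used here states the annotation, scaling, strand setting or treatment of multiply mapped reads.

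With 1 library per line and no read counts, no test could be run. Differences used a pseudocount of 1, a minimum of 1 FPKM in at least 1 library and a 2-fold limit (Python 3.11.15, pandas 2.3.3, numpy 2.4.6). The calculation was tested on simulated data. Members, role groups and lists were chosen with earlier results of these data known. Every member at 1 FPKM was named, with lower ones where they are assembly partners or listed by name, and the 5 largest differences of the processing and receptor lists. Col12a1, Col14a1, Col18a1, Col2a1, Col11a1, Col11a2, Col24a1, Col27a1, Col3a1, Col6a1, laminin chains under 1 FPKM, Loxl3, Tinagl1 and 2700060E02Rik were named after their values were seen.

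Relative depth came from 379 genes under 0.1 FPKM in both libraries: 153 had a ratio of B16/BL6 to B16 within 0.1% of 0.906, taken as equal fragments, and for 86.8% the ratio divided by 0.906 came within 0.5% of a quotient of whole numbers no larger than 5. Absolute depth, roughly 10.03 and 11.1 times 1000000 fragments, came from genes with a single transcript over 1500 bases under 0.2 FPKM whose implied depth, if the value was 1 fragment, was 8 to 14 times 1000000. Approximate fragment numbers use the longest coding transcript in GENCODE M21, and no interval was derived from them. Positions are RefSeq's on GRCm38.p6, and all 72 members were placed.

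Alternatives were pseudocounts of 0.1 and 5, no minimum or 5 FPKM, the TPM scale, upper-quartile scaling, centring on all genes or by chromosome, and limits of 1.5-fold and 4-fold.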

Additional observations from a re-analysis of the deposited data

How the results depend on the processing

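A change of pseudocount or minimum cannot turn the direction of a gene. No rescaling turned it for the 9 matrix genes that differed, which had been picked as at least 2-fold different. Their unchanged direction is therefore no check of these genes. With a pseudocount of 5, Col1a2 (0.94), Col9a1 (0.68), Spp1 (0.57), Col5a3 (-0.50) and Col10a1 (-0.47) came under 2-fold, which left 3 members higher and 1 lower. Of all 10709 genes, 151 were higher and 118 lower at that setting. By group that pseudocount left 0 fibrillar collagens either way, 1 FACIT collagen, 0 other collagens and 0 glycoproteins past the limit. The laminin median was then -0.31, and the processing list had 0 higher and 1 lower and the receptor list 1 higher. A pseudocount of 0.1 gave 2 other collagens lower, with 511 of all 10709 genes lower. With no minimum the medians were -0.057 for laminins and -0.032 for receptors. A minimum of 5 FPKM left 1 member lower, where 212 of all 8634 genes compared were. It also left 0 fibrillar and 0 other collagens lower, 1 FACIT collagen and 0 glycoproteins higher and 1 processing gene lower. Medians under it were -0.19 for laminins, -0.73 for linkers and 0.13 for receptors. On the TPM scale 2 other collagens and 1 receptor were lower, and the medians were -0.0089 for the members, -0.70 for laminins, -0.34 for linkers, -0.058 for processing genes and -0.069 for receptors. Upper-quartile scaling gave -0.037 for receptors, and centring by chromosome left 0 fibrillar collagens lower.

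At a limit of 1.5-fold, 8 members were lower: 1 collagen IV chain, 2 other collagens, 2 laminins and 2 linkers among them. Of all 10709 genes, 917 were lower and 1005 higher at that limit. The processing list then had 3 higher and the receptors 3 lower. At 4-fold, 2 members were higher and 1 lower, where 82 and 65 of all 10709 genes were. By group, 1 collagen IV chain remained, and 0 FACIT collagens, 0 glycoproteins and 0 receptors were higher. At that limit 0 fibrillar and 0 other collagens were lower, and the processing list had 0 higher and 1 lower. Smaller numbers follow from the stricter limit, pseudocount or minimum itself, and for the other settings the cause was not tested. No paired analysis was possible because each line had 1 library, and for the same reason no library could be left out. Values resting on a few fragments, such as those of genes under 1 FPKM, are the least certain.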
